A study of Homo sapiens with 2 samples.

Results

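TXNIP and 8 genes of the FOXO pathway linked to quiescence were examined in L-428, a Hodgkin's lymphoma (HL) cell line that grows in culture. The genes are TXNIP, FOXO1, FOXO3, CITED2, CDKN1B, RBL2, PIK3R1, IRS2 and INSR. They were chosen by name with the knock-down over control ratios of these arrays known, so their values are a description and were not tested. Every probe set whose only gene symbol in the platform annotation was 1 of the 9 genes was taken, which gave 18 probe sets of the 19065 with 1 symbol, and 9 of 11963 genes. RNA of transfected L-428 cells was hybridised to 2 Affymetrix HG_U133A microarrays. The DUSP5 knock-down array holds cells transfected with pcDNA6.2-GW/EmGFP-miR-DUSP5, which expresses an artificial microRNA against the ERK phosphatase DUSP5. The vector control array holds cells transfected with pcDNA6.2-GW/EmGFP-miR-neg, which the labels also call empty although its name has the ending miR-neg. Both cell populations thus carried a vector with the green fluorescent marker EmGFP, and all values come from 1 cell line. The time after transfection, the share of cells that took up the vector and any sorting for EmGFP are not given in the sources used here.

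FOXO proteins are transcription factors that switch on genes for cell cycle arrest, stress defence and apoptosis. When growth factors or insulin activate the kinase AKT through PI3K, AKT phosphorylates FOXO proteins, 14-3-3 proteins bind them, and they leave the nucleus. In resting cells they are nuclear and can induce CDKN1B, which encodes the CDK inhibitor p27, and RBL2, which encodes the pocket protein p130, and they also act on INSR and IRS2, so that the pathway feeds back on its own input. TXNIP is an alpha-arrestin that binds thioredoxin and lowers glucose uptake, and it is induced by FOXO proteins and, when glucose is plentiful, by the glucose-sensing factor MondoA (MLXIP) with its partner MLX. FOXO1 is known for its low level in classical HL.

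The stretches directly upstream of transcription starts are shown for TXNIP, the gene with the lowest ratio here, for CDKN1B, which was also lower, and for CITED2, which was higher. They come from the RefSeq promoter table of build GRCh38.p14 and end at the last base before the start. The TXNIP stretch is at chr1:145996580-145996829 (minus strand), that of CDKN1B at chr12:12717118-12717367 (plus strand) and that of CITED2 at chr6:139374649-139374898 (minus strand). Capitals mark matches to the motifs searched, on either strand.
TXNIP: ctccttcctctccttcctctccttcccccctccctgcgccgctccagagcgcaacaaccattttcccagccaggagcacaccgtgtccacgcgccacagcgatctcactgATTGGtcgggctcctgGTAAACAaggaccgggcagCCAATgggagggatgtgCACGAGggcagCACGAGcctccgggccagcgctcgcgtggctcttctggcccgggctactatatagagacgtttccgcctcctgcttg
CDKN1B: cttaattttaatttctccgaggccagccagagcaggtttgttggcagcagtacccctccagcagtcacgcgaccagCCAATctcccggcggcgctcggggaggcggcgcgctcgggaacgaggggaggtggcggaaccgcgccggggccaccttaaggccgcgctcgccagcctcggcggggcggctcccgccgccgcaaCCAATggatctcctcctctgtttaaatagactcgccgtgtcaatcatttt
CITED2: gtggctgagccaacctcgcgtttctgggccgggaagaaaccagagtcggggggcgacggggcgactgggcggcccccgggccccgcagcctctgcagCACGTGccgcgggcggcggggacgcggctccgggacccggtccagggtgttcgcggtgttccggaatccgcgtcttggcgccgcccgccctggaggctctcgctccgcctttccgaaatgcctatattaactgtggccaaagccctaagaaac

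The motifs were the FOXO element GTAAACA, the insulin response core CAAAACA, the E-box CACGTG, a pair of carbohydrate response boxes (CACGAG, any 5 bases, CACGAG) and the CCAAT box, each also read as its reverse complement. The motifs are of different sequence and no matches overlapped in the printed stretches. All 9 genes had windows in the table, 19 in all, because several genes have more than 1 start. The printed stretches are 1 of 2 windows of TXNIP, 1 of 3 of CITED2 and the only window of CDKN1B. The FOXO element was found in 1 of the 19 windows, the printed one of TXNIP, where it begins 124 bases before the start, and 2.98% of all 35116 windows of 250 bases hold it. The paired boxes also occurred only in the printed TXNIP window among the 19, and the second TXNIP window held none of the motifs. The paired boxes lie from 88 to 72 bases before the start, and 2 windows of the whole table hold them. Only these exact letters, which are those of the TXNIP stretch, were searched, and response boxes spelled otherwise were not. The count of 2 therefore does not show how rare such elements are or that they are particular to TXNIP. CCAAT boxes lie on both sides of the FOXO element of TXNIP, and 6 of the 19 windows hold this motif, about the share found in the whole table (11240 of 35116 windows). The E-box was found in the printed CITED2 window only (6.34% of all windows) and the insulin response core in the IRS2 window only (4.30%). A match describes the letters of the window and says nothing of whether a factor binds there.

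The signal intensities had been scaled on each array to the same target of 500. A log2 ratio is given as knock-down over control, so that a negative ratio means a lower signal after knock-down. Each condition has 1 array, so there is no replicate check and no p-value. As the error of a ratio, the standard deviation (SD) among probe sets that share a gene and a similar signal is given, which covers probe error on these arrays but not the spread between cultures. This SD was 1.19 where the mean signal was below 100 and 0.73 between 100 and 200, and it shrank with brightness to 0.41 (up to 500), 0.36 (up to 1000) and 0.30 (up to 3000). Probe sets that averaged 200 or more over both arrays are called measured here, which holds for 11 of the 18 probe sets. Each gene is represented by its brightest probe set, and by this rule TXNIP, FOXO3, CITED2, CDKN1B, RBL2 and PIK3R1 were measured, whereas FOXO1, IRS2 and INSR were not. DUSP5 itself had a signal of 368 after knock-down and 628 in control cells, or 58.6% of control. GAPDH, the reference gene of the study's RT-PCR, was higher at its 3 probe sets (median log2 ratio 0.98). Of 13 listed markers of HL cells 12 were measured. Of the other markers on the array, 1 of 7 B cell markers (PAX5) and none of 7 T cell and 7 myeloid markers were measured. At the brightest probe set 2 HL markers were at least 1.5-fold lower, FUT4 (-1.25), which makes the CD15 antigen, and ID2 (-0.61). Both had a second measured probe set of opposite sign (0.35 for FUT4 and 0.37 for ID2). Another 2 were at least 1.5-fold higher, TNFRSF8, which encodes CD30, and CCL17. Over all 6301 measured genes 19.0% were that much lower and 15.6% that much higher, so 2 of 12 in each direction is near these shares. The summed signals were 754 after knock-down and 770.3 in control cells for the B cell markers. They were 619 and 439 for the T cell markers, and 342 and 229 for the myeloid markers. All probe sets with 1 symbol and a mean signal under 200 had a median log2 ratio of 0.27. The part of other cells in the ratios below was not tested. With 1 culture per condition, an effect of the knock-down cannot be told apart from other differences of the cultures.

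TXNIP had by far the lowest ratios among the 9 genes, and its 3 probe sets gave nearly the same ratio. The first probe set (201010_s_at) gave 477 after knock-down and 4419 in control cells, or 10.8% of control. The second (201008_s_at) gave 301 after knock-down and 3258 in control cells, or 9.24%. The third (201009_s_at) gave 323 after knock-down and 2956 in control cells, or 10.9%. All 3 thus showed a signal lower by 9.15 to 10.8 times, with log2 ratios of -3.21, -3.44 and -3.19 (SD between probe sets 0.30). Among the 9037 measured probe sets with 1 symbol these were the ratios at ranks 8, 6 and 9 from the lowest. By gene, TXNIP ranked 3 of the 6301 measured genes and was the lowest of the 4037 genes that averaged 500 or more. Of 602 genes with at least 3 measured probe sets, 11 (1.83%) were at least 2-fold lower at every probe set, and TXNIP was the only gene at least 8-fold lower at every one (0.166%). The 8-fold limit was used for this count only and lies just below the smallest TXNIP fold of 9.15. As TXNIP was chosen with its ratios known, these ranks and counts describe it and are no independent evidence. All 3 probe sets are of the type _s_at, which can match several transcripts, so a value from another type of probe set is not given for TXNIP.

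**Figure D1:**
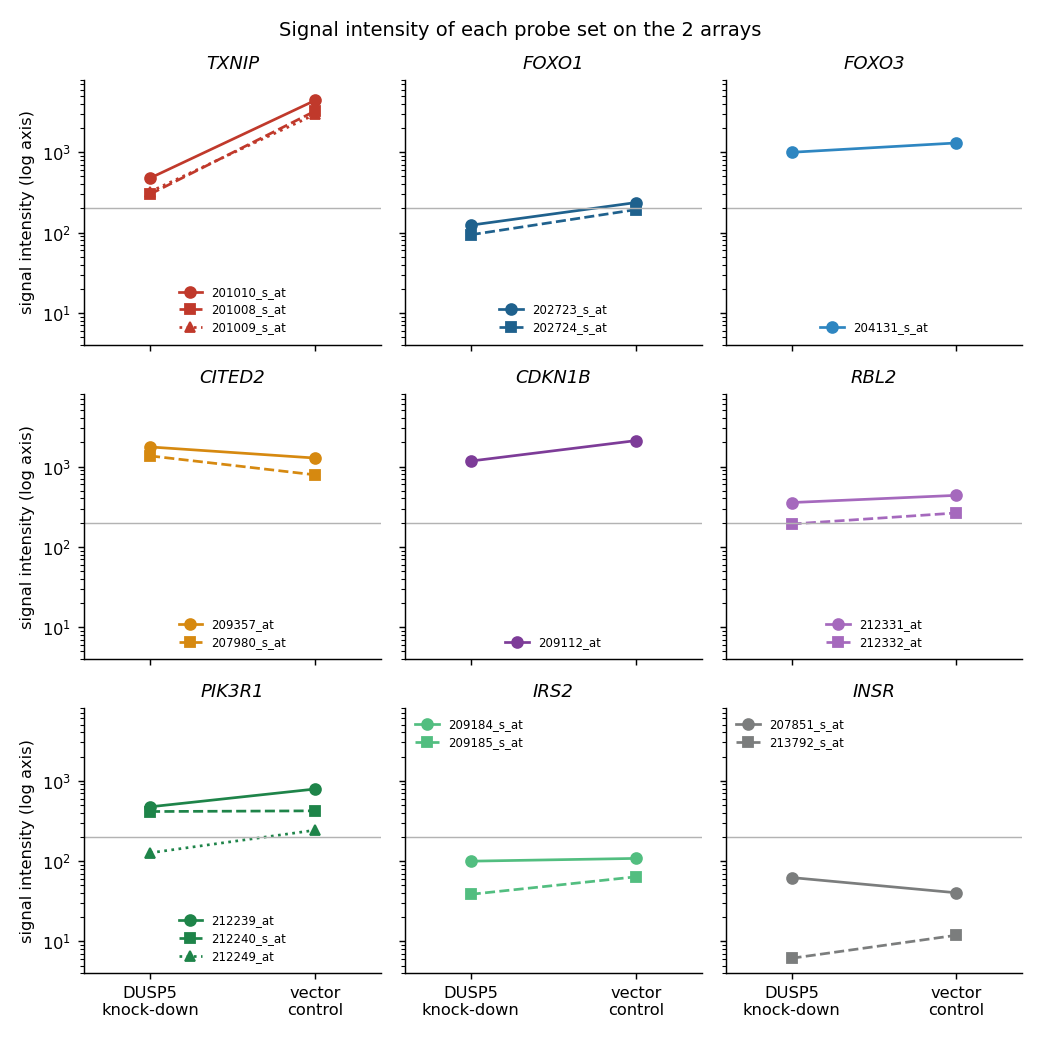
Signal intensity (log axis) of each probe set of the 9 genes on the DUSP5 knock-down array (left in each panel) and the vector control array (right), 1 array each. Lines join the values of a probe set and the grey line marks a signal of 200. TXNIP lies at 301 to 477 after knock-down and at 2956 to 4419 in control cells, the lines of CITED2 slope the other way, and IRS2 and INSR lie below the grey line.

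The genes whose ratio came nearest to that of TXNIP, among the other genes that averaged 500 or more, were YIPF1, FERMT2 and ENPP2, and likeness here means only a similar ratio over 2 arrays. YIPF1, a Golgi membrane protein, had 142 after knock-down and 1086 in control cells (log2 ratio -2.93). FERMT2, which encodes kindlin-2, an activator of integrins, had 239.6 after knock-down and 1723 in control cells (-2.85). ENPP2, which encodes autotaxin, an enzyme that makes lysophosphatidic acid, had 145 after knock-down and 949.6 in control cells (-2.71). Their ratios differed from that of TXNIP by 0.28, 0.36 and 0.50. The SD of a single ratio was 0.30 at the signal of TXNIP and 0.36 at theirs, and the error of a difference is larger.

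The transcription factors FOXO1 and FOXO3 had lower signals after knock-down at every probe set that carried their symbol alone, by much less than TXNIP. FOXO3, which has 1 such probe set, gave 999.7 after knock-down and 1307 in control cells, or 76.5% of control (log2 ratio -0.39, SD 0.30). This lies between the 1.5-fold limits used for counts. Another 3 probe sets carry both FOXO3 and its near copy FOXO3B, and they were left out because their signal cannot be assigned. FOXO1 gave 124 after knock-down and 237 in control cells at the first of its probe sets, and 94.1 and 193 in the same order of arrays at the other. Both ratios were low (-0.93 and -1.04), at signals where the SD between probe sets is 0.73. At probe sets this dim a ratio of that size was common, since 19.3% of the 10028 probe sets under a mean signal of 200 were at least 1.5-fold lower and 34.4% at least 1.5-fold higher.

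CITED2 was the only measured gene of the 9 with a higher signal after knock-down. It encodes a cofactor that binds CBP and p300, limits the hypoxia factor HIF1A and is a known FOXO target. Its probe set 209357_at gave 1752 after knock-down and 1275 in control cells, or 137% of control, and its probe set 207980_s_at gave 1355 after knock-down and 788 in control cells, or 172%. The log2 ratios were 0.46 and 0.78 (SD 0.30), so that only the second was past 1.5-fold, and relative to GAPDH the first turned to -0.52. TXNIP and CITED2, both known FOXO targets, therefore had ratios of opposite sign on the deposited scale.

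The inhibitors of the cell cycle were lower to different degrees. CDKN1B (p27), which blocks CDK2 and holds cells in G1, gave 1169.8 after knock-down and 2100.1 in control cells at its only probe set, or 55.7% of control (log2 ratio -0.84, SD 0.30). RBL2 (p130), which with E2F4 represses cell cycle genes in resting cells as part of the DREAM complex, gave 356 after knock-down and 438 in control cells at 212331_at. Its other probe set gave 193 after knock-down and 264 in control cells. The RBL2 ratios of -0.30 and -0.46 had the same sign, but the first was smaller and the second hardly larger than the SD of 0.41. The ratio of CDKN1B, in contrast, was larger than its SD.

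**Figure D2:**
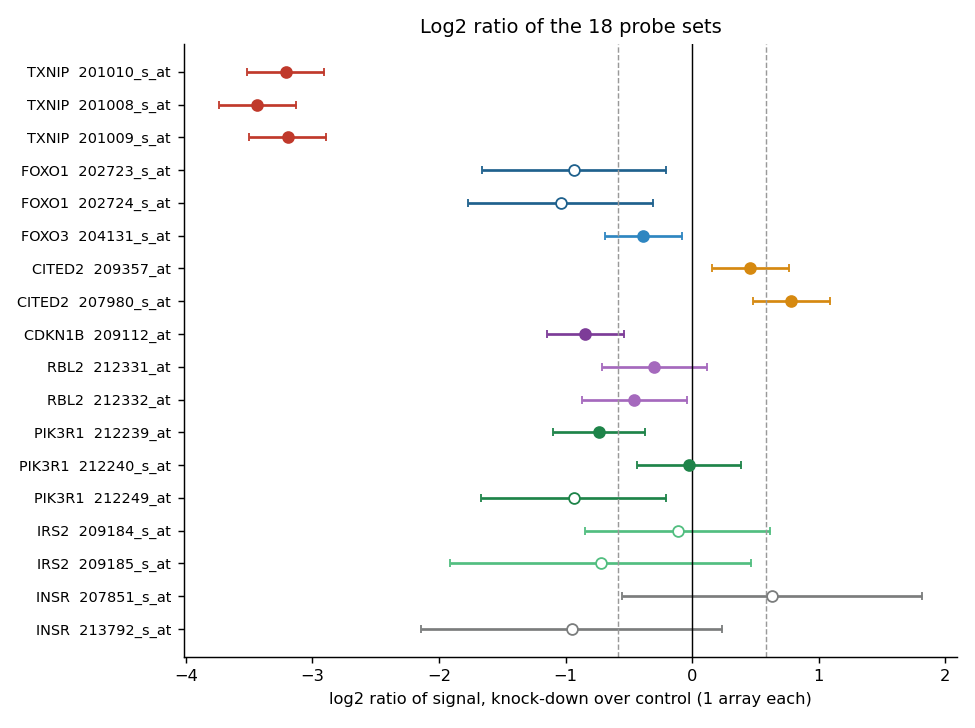
Log2 ratio of knock-down to control (1 array per condition) for the 18 probe sets. Bars are the SD among probe sets sharing a gene, taken at that signal, filled points have a mean signal of at least 200, open points a lower one, and the dashed lines mark 1.5-fold. TXNIP lies at -3.44 to -3.19, apart from all other probe sets, which lie between -1.04 and 0.78.

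Upstream of FOXO, the insulin and PI3K genes gave no common picture. PIK3R1 encodes p85-alpha, the regulatory subunit that stabilises and restrains the catalytic subunits of PI3K. Its probe set 212239_at gave 474 after knock-down and 789 in control cells (log2 ratio -0.74, SD 0.36), whereas 212240_s_at gave 414 after knock-down and 422 in control cells (-0.03, SD 0.41). The third, 212249_at, gave 127 after knock-down and 242 in control cells (-0.94, SD 0.73). The probe sets of this gene thus disagreed by 0.91, more than those of any other measured gene of the 9, and the low value at the brightest was not seen at the second. IRS2, an adaptor that carries the signal of the insulin receptor to PI3K, gave 99.8 after knock-down and 108 in control cells at one probe set, and 38.6 and 63.7 in that order of arrays at the other. INSR, the insulin receptor, gave 62.4 after knock-down and 40.3 in control cells at one probe set, and 6.18 after knock-down and 11.9 in control cells at the other. Its ratios of 0.63 and -0.95 had opposite signs, and with those of IRS2 (-0.11 and -0.72) they all lay within 1 SD of 0, so that no difference was detectable for INSR and IRS2 at these signals.

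Counted by gene, 3 of the 6 measured genes were at least 1.5-fold lower (TXNIP, CDKN1B and PIK3R1), none was that much higher, and FOXO3, RBL2 and CITED2 lay between. With ratios averaged over each gene's probe sets PIK3R1 was at -0.57, short of 1.5-fold, and only TXNIP and CDKN1B were that much lower, while CITED2 was higher (0.62). Over the 6301 genes measured in all, the shares past 1.5-fold were 19.0% on the lower and 15.6% on the higher side. After centring on the median of all probe sets these shares were 24.1% and 11.0%, and relative to GAPDH 75.4% and 0.778%. At 2-fold only TXNIP was lower and none higher, against 7.30% and 4.38% of all measured genes. The median log2 ratio was -0.56 over the 6 genes and 0.01 over all measured genes. Because the genes were chosen with these ratios known, the counts describe them and are no evidence about the pathway. By probe set, 15 of the 18 were lower after knock-down to any degree, and the exceptions were both of CITED2 and 1 of INSR. Of these 15, 6 were not measured and 3 were those of TXNIP. The share of all probe sets below 0 was not computed, and their median log2 ratio was 0.12. Relative to GAPDH, which by construction subtracts 0.98 from every ratio, all 9 genes were lower.

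**Figure D3:**
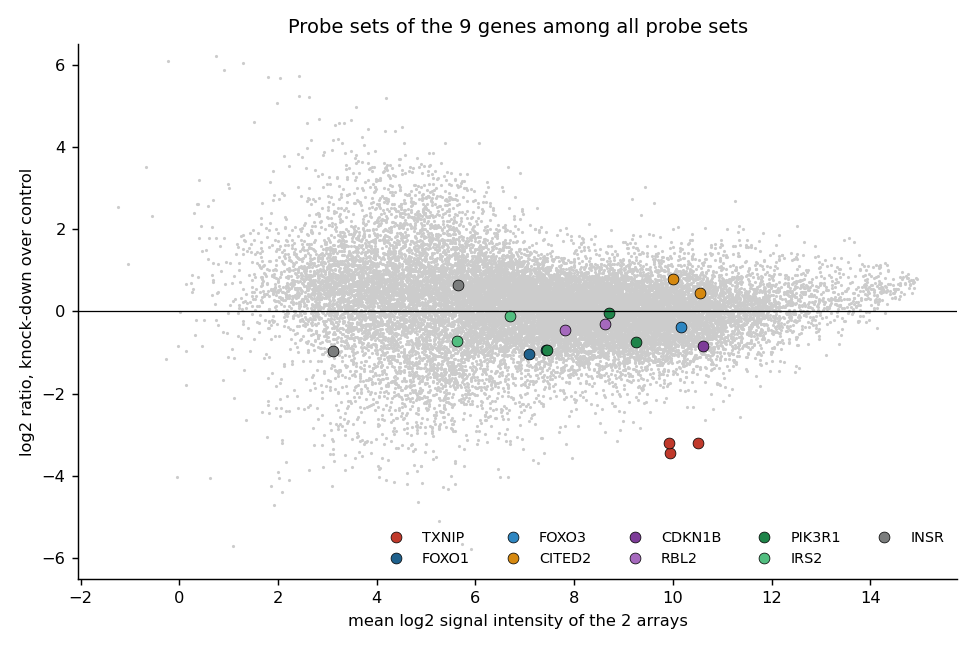
Vertical axis, log2 ratio of knock-down to control; horizontal axis, log2 signal intensity averaged over both arrays; shown are the 22215 probe sets other than controls (grey) and the 18 probe sets of the 9 genes (coloured). The vertical axis leaves out 1 grey point. The grey cloud narrows to the right. The 3 TXNIP points, at -3.44 to -3.19, lie at its lower edge, and some dimmer grey points lie lower still. FOXO1, IRS2 and INSR lie where the cloud is wide.

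Other genes of the pathway were then counted from 6 lists written with earlier results of these arrays known, each without the 9 genes themselves. Among FOXO regulators, 18 of 24 genes were measured, of which 3 were at least 1.5-fold lower and 3 higher (16.7% each), near the shares of 19.0% and 15.6% over all measured genes. The median was 0.28 (-0.69 relative to GAPDH), and with ratios averaged over each gene's probe sets it was 0.075 and only 1 gene was higher. SIRT1, a deacetylase that acts on FOXO proteins, was lowest, with 427 after knock-down and 1122 in control cells (log2 ratio -1.39), followed by the IkappaB kinase IKBKB (-0.81) and the acetyltransferase CREBBP (-0.71). Highest were SFN at 1.28 and YWHAQ at 0.87, both 14-3-3 proteins, which hold phosphorylated FOXO in the cytoplasm, although YWHAQ ranged from 0.00 to 0.87 over its probe sets. The ubiquitin protease USP7, which removes ubiquitin from FOXO4, had 0.83 and at its other measured probe set 0.30.

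In insulin and PI3K-AKT signalling, 27 of 46 genes were measured and 21 of them lay between the 1.5-fold limits. At least 1.5-fold lower were 3 genes, the adaptor GAB2 (-0.86), the mTOR subunit MLST8 (-0.85) and the lipid phosphatase INPP5D (-0.85), which opposes PI3K in blood cells. At least 1.5-fold higher were also 3, the catalytic subunit PIK3CD (1.06, and 0.46 at its other probe set), the kinase AKT1 (1.04) and the mTOR complex subunit MAPKAP1 (0.86). AKT1 gave 850.3 after knock-down and 413 in control cells. These counts correspond to 11.1% in each direction, below the shares of 19.0% and 15.6% over all measured genes, and the median was -0.01.

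Of 51 further FOXO target genes 30 were measured, of which 13 (43.3%) were at least 1.5-fold lower and 2 (6.67%) higher, against 19.0% and 15.6% of all measured genes. Of the 30, 22 had a ratio below 0, and the share of all measured genes below 0 was not computed. The median was -0.16, against 0.01 over all measured genes. This median depended on the setting. It was -0.38 after quantile normalization (0.04 over all measured genes), but without the types _s_at and _x_at it was -0.028, no lower than the -0.04 over all genes measured that way. GADD45A, a growth arrest and DNA damage gene, was lowest, with 558 after knock-down and 2794 in control cells (log2 ratio -2.32). MAP1LC3B, a protein of the autophagosome, had -1.40 and -1.49 at its probe sets, and BTG1, an antiproliferative gene of lymphocytes, had -1.21 and -0.92. At the other end stood the mitotic kinase PLK1 (1.12), the DNA damage-binding protein DDB1 (0.88) and the mitochondrial peroxiredoxin PRDX3 (0.51). With ratios averaged over a gene's probe sets 9 (30.0%) were lower and 3 (10.0%) higher, against 17.8% and 15.7% of all genes so measured. When the types _s_at and _x_at were left out, 6 of 19 (31.6%) were lower and 2 (10.5%) higher, against 21.3% and 14.5%. The list was written with the low ratios of several FOXO targets on these arrays known, so the count is not independent evidence of that direction.

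Of 43 genes of cell cycle arrest and the pocket protein complexes 20 were measured, with 6 (30.0%) at least 1.5-fold lower and 1 higher, against 19.0% and 15.6% of all measured genes, and a median of -0.25. After quantile normalization, and likewise with the lowess fit, 5 (25.0%) were lower and 3 (15.0%) higher. This was nearer to the shares of all measured genes, 17.1% and 16.5% with quantile normalization and 18.1% and 15.5% with lowess. After centring 6 (30.0%) were lower and 1 higher, against 24.1% and 11.0%. With ratios averaged over probe sets 5 (25.0%) were lower and 1 higher, against 17.8% and 15.7%. Without the types _s_at and _x_at 3 of 10 (30.0%) were lower and none higher, against 21.3% and 14.5%. On the deposited scale GADD45A and BTG1 were lowest, followed by the CDK4 and CDK6 inhibitor CDKN2D (-1.11). The chromatin protein RBBP4 (0.87) was the only one past 1.5-fold in the other direction, with the B-MYB gene MYBL2 (0.57) and CCNG1 (0.56) next. All 6 lower genes are also on the FOXO target list, which shares 7 measured genes with this one (23.3% of the FOXO targets measured and 35.0% of the arrest genes measured), so the counts of both lists rest in part on the same genes.

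Of 37 genes that carry cells through G1 into S phase 32 were measured, with 2 (6.25%) at least 1.5-fold lower and 7 (21.9%) higher, against 19.0% and 15.6% of all measured genes. The higher count was 5 (15.6%) after centring, against 11.0% of all measured genes. It was also 5 (15.6%) with ratios averaged over probe sets, against 15.7%, and 9 (28.1%) after quantile normalization, against 16.5%. The list had a median of 0.13, against 0.01 over all measured genes. Centring on the median of all probe sets subtracts the same value from every ratio, and these medians were then 0.00 and -0.12. Highest were the ribonucleotide reductase subunit RRM2 (1.02, and 0.57 at its other probe set), cyclin A2 (CCNA2, 0.96, but -0.04 at its other probe set) and RBX1 (0.84), a subunit of cullin ubiquitin ligases. Lowest were CDK6 (-1.94), the replication licensing inhibitor geminin (GMNN, -0.79) and CKS1B (-0.45), which helps SKP2 to mark p27 for degradation. CDK6, the G1 kinase that p27 and CDKN2D bind, gave 153 after knock-down and 584 in control cells at its only probe set. The other G1 kinases CDK4 (-0.12) and CDK2 (-0.09), named after their values were seen, lay near 0 at the brightest probe set. At its other measured probe set CDK2 had 0.43.

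**Figure D4:**
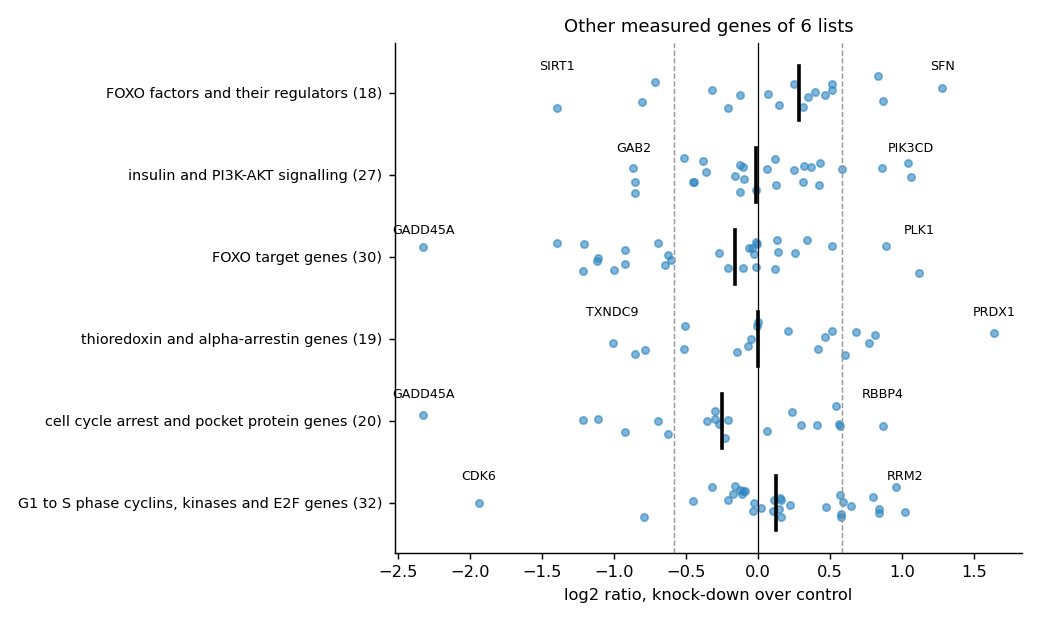
Log2 ratio of knock-down to control for the measured genes of 6 lists without the 9 genes, with the number of genes in brackets. Each point is a gene, black bars are list medians, dashed lines mark 1.5-fold, the vertical offset of points has no meaning, and the lowest and highest gene of each list are named. The medians lie between -0.25 and 0.28, and GADD45A and CDK6 lie farthest to the left.

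Around TXNIP itself, 19 of 30 genes of the thioredoxin and alpha-arrestin list were measured, with 3 (15.8%) at least 1.5-fold lower and 5 (26.3%) higher, against 19.0% and 15.6% of all measured genes, and a median of 0.00. These counts turned to 5 lower and 3 higher after centring (26.3% and 15.8%, against 24.1% and 11.0% of all measured genes). With ratios averaged over probe sets they were 3 in each direction (15.8%, against 17.8% and 15.7%). PRDX1, a peroxiredoxin that uses thioredoxin to reduce peroxides, was highest, with 3247 after knock-down and 1044 in control cells (log2 ratio 1.64). Thioredoxin (TXN), the protein that TXNIP binds, gave 5455 after knock-down and 3103 in control cells (0.81, and 0.38 at its other probe set), and PRDX2 had 0.77. Lower were TXNDC9 (-1.01), a thioredoxin-like protein, and the glucose transporters SLC2A3 (-0.85), which encodes GLUT3, and SLC2A1 (-0.78), which encodes GLUT1. SLC2A1 gave 452 after knock-down and 778 in control cells. MLXIP, which encodes MondoA, and its partner MLX were singled out after their values were seen, with log2 ratios of -0.01 and 0.46. The TXNIP relatives ARRDC1, ARRDC2, ARRDC3 and ARRDC4 had no probe set with 1 symbol and were not analysed here.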

How the data were processed

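RNA from 1 knock-down and 1 control transfection of L-428 cells had been hybridised to Affymetrix HG_U133A arrays. The authors computed signal intensities from the Cel files with Affymetrix Expression Console (MAS5), and the deposited intensities are linear and scaled to a target of 500. The median intensity was 164 on the knock-down array and 161 on the control array, and the number of arrays limits the precision. Of 22283 probe sets 68 were controls, and of the others 19065 had 1 symbol, 1043 several and 2107 none. Of those with 1 symbol 19053 were found by gene ID in the RefSeq table of GRCh38.p14.

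Log2 ratios were taken without further normalization. The SD between probe sets came from the differences in pairs of probe sets of 1 gene that lay in the same band of mean signal. The 9 genes and the lists were chosen with earlier results of these data known. Named were all 9 genes, up to 3 genes at each end of a list, and the 3 genes nearest to TXNIP in ratio with a mean signal of at least 500. Alternatives were quantile normalization, centring, a lowess fit (span 0.3), ratios relative to GAPDH, 32 added to each signal, other filters, a 2-fold limit, and other choices of probe set. On simulated data the counts, medians and SD were tested for ratios without further normalization. The alternative scalings were run on the simulated data without a check that could fail. Python 3.11.15, numpy 2.4.6, pandas 2.3.3, statsmodels 0.14.6 and matplotlib 3.10.9 were used. The RT-PCR data were not analysed here.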

Additional observations from a re-analysis of the deposited data

How the results depend on the processing

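No paired analysis was possible because there is a single array on either side. The log2 ratio of TXNIP ranged from -4.19 to -3.13 over all settings and lay at -4.19 relative to GAPDH, which by construction subtracts 0.98. Relative to GAPDH 5 of the 6 measured genes were at least 1.5-fold lower, and with a 2-fold limit 1. With no filter 4 of the 9 genes were lower and 1 was higher (INSR), against 18.7% and 24.6% of all genes. The INSR ratio lay within its SD of 1.19. With ratios averaged over probe sets 2 of 6 were lower, PIK3R1 at -0.57 no longer counting, and 1 was higher (CITED2). INSR, at 0.63 on the deposited scale, turned to -0.35 relative to GAPDH and to -0.16 with the mean of its probe sets. Of the other log2 ratios of the 8 genes besides TXNIP, 59 moved by less than the SD between probe sets and 7 by more. Several of the 59 could not move. A signal filter leaves the brightest probe set of a gene as it is, and averaging cannot change CDKN1B and FOXO3, which have 1 probe set each.

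List medians moved by more than their error (SD between probe sets over the square root of the number of genes) in these cases, with the median of measured genes at -0.12 after centring and -0.97 relative to GAPDH. FOXO regulators had 0.16 after quantile normalization, 0.16 after centring, 0.15 with the lowess fit, -0.69 relative to GAPDH, 0.075 with the mean of probe sets and 0.11 without types _s_at and _x_at. FOXO targets had, in the same order but for the mean of probe sets, -0.38, -0.28, -0.35, -1.13 and -0.028. The G1 to S list had 0.0028 after centring, 0.045 with the lowess fit and -0.85 relative to GAPDH. Arrest genes had -0.37 after centring, -1.23 relative to GAPDH, -0.15 with no filter and -0.14 with the mean of probe sets. PI3K-AKT genes had 0.062 after quantile normalization, -0.14 after centring, -0.99 relative to GAPDH, 0.065 with no filter, -0.16 at a mean signal of at least 500, 0.20 with the mean of probe sets and 0.065 without types _s_at and _x_at. Thioredoxin genes had -0.12 after centring, -0.98 relative to GAPDH, 0.10 with no filter and 0.16 with the mean of probe sets. The cause of the other shifts was not tested. Low signal limits FOXO1, IRS2 and INSR.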
